A study of Pan troglodytes with 217 samples.

Results

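The 10 genes of the WNT pathway were described in single cells of day 4 blastoids made from chimpanzee naive induced pluripotent stem cells. They are the ligand WNT3, the WNT agonist RSPO3 and its receptor LGR4, the receptors FZD5 and FZD7, the co-receptor LRP6, the feedback gene AXIN2, and the secreted antagonists DKK1, FRZB and SFRP1. They were chosen by name, with earlier results of these data known, and correspond to 11 of the 33729 gene identifiers in the table, because WNT3 has 2 (ENSPTRG00000009321 and ENSPTRG00000046218), whose reads were summed. A blastoid is a blastocyst-like structure formed in culture, with an outer trophectoderm-like layer and an inner cell mass in which epiblast-like and hypoblast-like cells can be found.

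All cells belong to 1 condition. Before blastoid formation the naive cells were kept in a medium that held activin A, LIF, IL6, a MEK inhibitor, the PKC inhibitor Gö6983, the EZH2 inhibitor EPZ-6438 and XAV939, an inhibitor of tankyrase that dampens WNT signalling by stabilizing AXIN proteins. The study's blastoid method can begin with non-adherent culture in that same medium. The media that followed held a MEK inhibitor, A83-01, LPA and Y-27632 at first and none of them at the end. For these the study's methods name no XAV939, WNT ligand or R-spondin. Every cell has a SMART-seq2 library of its own, made from full-length cDNA without molecular identifiers. The mural trophectoderm had been excised and dissociated apart from the inner cell mass with its polar trophectoderm, so the numbers of cells per class describe what was picked for sequencing. The sources give no line, blastoid or plate for a cell. The cells therefore form 1 sample and no test between classes was possible. Every interval below treats reads, or cells for a share, as independent, and leaves out repeated copies of a molecule.

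The WNT pathway acts through secreted lipid-modified ligands that bridge a frizzled receptor and a co-receptor of the LRP family. Binding stops the breakdown of beta-catenin, which then works with TCF and LEF factors to switch on target genes, AXIN2 among them. R-spondins bind LGR receptors and take the ubiquitin ligases ZNRF3 and RNF43 off the cell surface, which leaves more frizzled protein there. Dickkopf proteins block the co-receptors, and frizzled-related proteins bind the ligands outside the cell.

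Cells with fewer than 8000 detected genes were left out, which removed 24 cells and kept 88.9%. The study reports fewer cells after its own filter, so the classes here need not match its clusters cell by cell. Kept cells ranged from 1679888 to 25630392 reads on genes (median 3960857). The medians were 3951119 in epiblast-like, 3978822.5 in hypoblast-like, 3693058 in CCR7-low and 4516217 in CCR7-high cells, the last names being those of the trophectoderm-like clusters below. Clustering was run without the 91 genes of the WNT lists, so that no member could influence the class in which it was measured. It gave 50 epiblast-like cells, 32 hypoblast-like cells and 2 clusters of trophectoderm-like cells, with 60 and 51 members. These clusters are named here by CCR7, a chemokine receptor gene, at 5.71 CPM in the larger and 315 CPM in the smaller. CPM stands for the reads of a gene per 1000000 reads on all genes, from the reads of all cells of a class together unless a value is said to be that of a cell. The clusters were named from epiblast, hypoblast and trophectoderm marker lists. Each list was met in every cell of the class it names, as at least 3 markers at 10 CPM or more, but this is no separate check. Classes overlapped in markers, however, since the trophectoderm list was also met in the epiblast-like class by 26 cells and in the hypoblast-like class by 26, and the epiblast list by 22 hypoblast-like cells. Lists for amnion, primitive streak or mesoderm, and fibroblast or feeder cells were met by 0 cells. The median summed level of each was at most 22.9 CPM in any cluster. These lists held 6 or 7 genes, against 12 in the others, so 3 markers were harder to reach. Single genes of them were widespread. At 10 CPM or more were VTCN1 of the amnion list in 39 of 60 CCR7-low and 28 of 51 CCR7-high cells, and GSC of the streak list in 19 of 32 hypoblast-like cells. In epiblast-like cells ISL1 (amnion) reached it in 23 of 50 and THY1 (fibroblast) in 18 of 50. Each other gene did so in at most 7 cells of any cluster.

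Hypoblast-like cells stood apart by their secreted WNT modulators. RSPO3 (ENSPTRG00000018578), which strengthens WNT signals, and FRZB (ENSPTRG00000012708), a frizzled-related protein that binds WNT ligands, were both high there and low elsewhere. In single hypoblast-like cells RSPO3 ranged from 0 to 3115 CPM with a median of 75.3 CPM. A read was found in 25 of 32 of them (78.1%, exact 95% interval 60.03% to 90.7%), and 22 had 10 CPM or more. The gene was thus strong in many of these cells and undetected in others. In epiblast-like cells 15 of 50 had a read and 6 reached 10 CPM, with a highest cell at 188.6 CPM and a median of 0. In the trophectoderm-like clusters 3 of 60 and 2 of 51 cells had a read, the highest at 8.85 CPM. The ranges of single cells overlapped at the low end, because each class held cells without an RSPO3 read. The pooled levels were 417 CPM (95% Poisson interval 414 to 421) in hypoblast-like cells, 9.77 CPM (9.36 to 10.2) in epiblast-like cells and 0.219 CPM (0.180 to 0.263) in trophectoderm-like cells. Of the 6 epiblast-like cells at 10 CPM, 5 had 3 or more trophectoderm markers and 1 had 3 or more hypoblast markers at that level, against 21 and 3 of the other 44, and the part of mixed cells in this was not tested. The hypoblast-like level was 42.7-fold (40.9 to 44.6) the epiblast-like level and 1907-fold (1586 to 2315) the trophectoderm-like level. A single cell gave 29.1% of the RSPO3 reads of the hypoblast-like class, and without it the level was 319 CPM. The fold over epiblast-like cells was 32.7 without that cell, and 79.99 without the 1 epiblast-like cell that held 48.4% of the reads of its class, where the level was then 5.22 CPM.

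FRZB reads were present in 23 of the 32 hypoblast-like cells, and 17 reached 10 CPM. Single cells ranged from 0 to 858 CPM, with a median of 23.7 CPM. In epiblast-like cells a read was found in 4 of 50, in the trophectoderm-like clusters in 8 of 60 and 12 of 51. The pooled levels were 193.5 CPM (191.1 to 195.97) in hypoblast-like, 7.29 CPM (6.93 to 7.66) in epiblast-like and 0.809 CPM (0.734 to 0.891) in trophectoderm-like cells. The epiblast-like value rested on 1 cell at 202.9 CPM, which held 95.7% of the reads. Without that cell FRZB was at 0.327 CPM in the class, below its trophectoderm-like level, so the 9.004-fold difference between epiblast-like and trophectoderm-like cells turned around. The same cell carried 48.4% of the epiblast-like RSPO3 reads, at 137.7 CPM. It had POU5F1, a core pluripotency factor, at 1329 CPM, NANOG at 99.3 CPM and PDGFRA, a receptor of early hypoblast, at 141.4 CPM, and it held 4 hypoblast and 5 trophectoderm markers at 10 CPM. Whether it was a doublet was not tested.

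RSPO3 and FRZB ranked 4 and 7 in the hypoblast-like cluster by fold over all other cells among genes at 50 CPM or more, in a list that also held the endoderm factors GATA4 and SOX17. No cell entered the class because of them, since they had been kept out of the clustering.

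**Figure D1:**
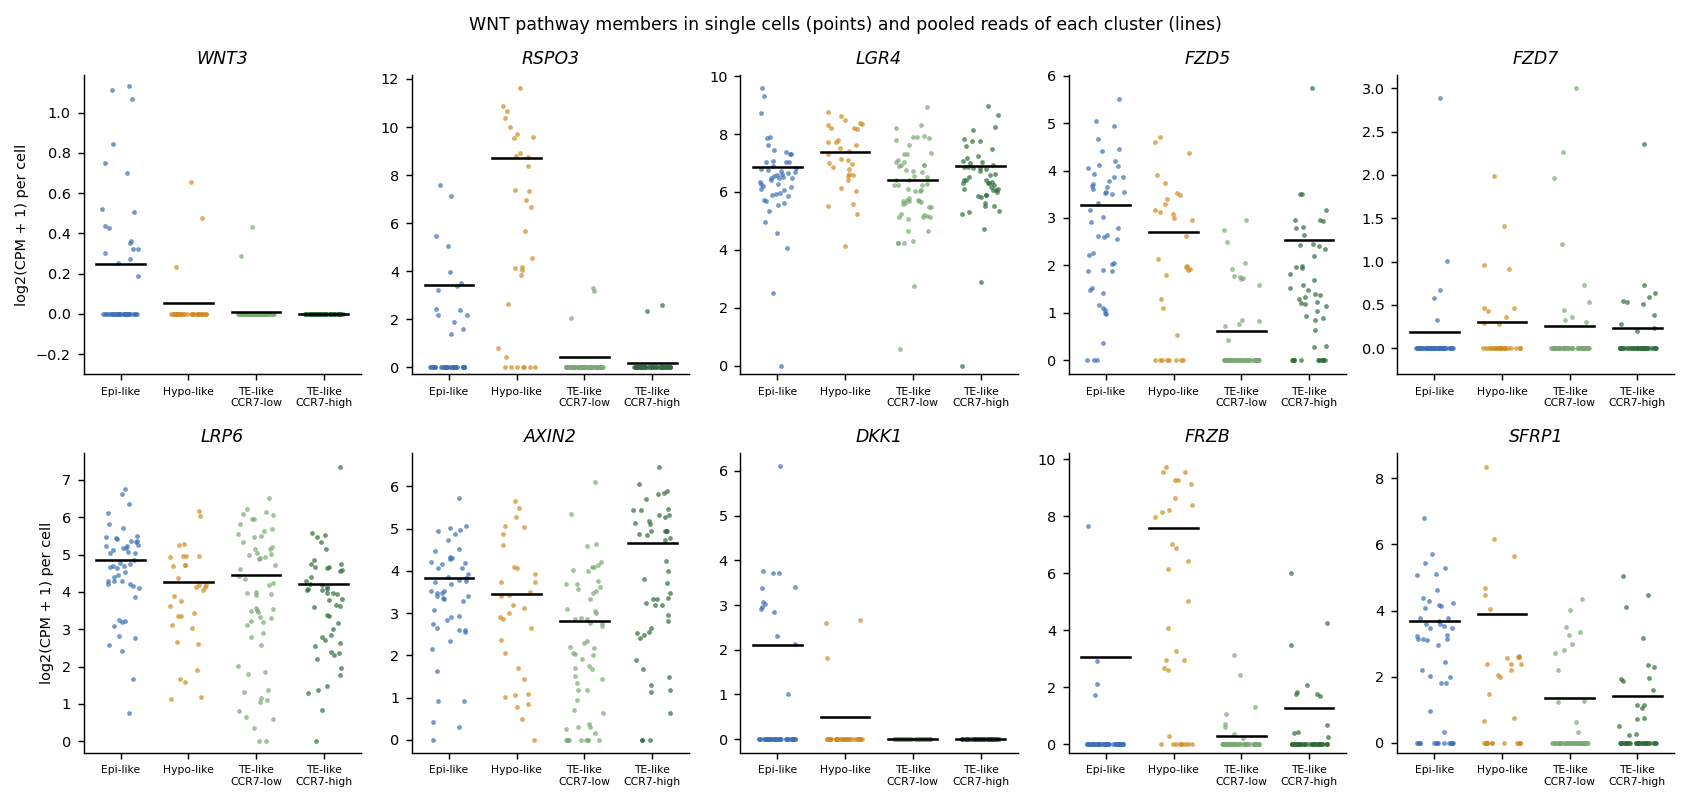
Level of each of the 10 genes in single cells, as log2(CPM + 1) on the vertical axis with a scale of its own per panel, for 50 epiblast-like, 32 hypoblast-like and 60 and 51 trophectoderm-like cells. Points are cells and black lines the pooled CPM of the cluster, which in FRZB of epiblast-like cells (7.29 CPM) follows 1 high cell. RSPO3 and FRZB stand high in hypoblast-like cells, DKK1 and WNT3 are seen mostly in epiblast-like cells, and LGR4 and LRP6 are spread over all 4 clusters.

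Within the 32 hypoblast-like cells the agonist and the antagonist were found in the same cells. Both reached 10 CPM in 17 cells, RSPO3 without FRZB in 5, FRZB without RSPO3 in 0, and neither in 10. Spearman's rho between their levels was 0.86 over the 32 cells, a description of cells that share a sample and differ in depth. Neither gene followed depth closely, with a rho of -0.22 for RSPO3 and -0.18 for FRZB against the reads of the cell.

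Within the class RSPO3 and FRZB were highest in cells with FOXA2. FOXA2, an endoderm transcription factor, reached 10 CPM in 14 hypoblast-like cells, and each of these 14 had RSPO3 and FRZB at 10 CPM or more. In them RSPO3 ranged from 101.01 to 3115 CPM with a median of 756 CPM, and FRZB from 84.6 to 858 CPM with a median of 368 CPM. In the other 18 cells RSPO3 ranged from 0 to 162.1 CPM with a median of 2.99 CPM, and FRZB from 0 to 70.5 CPM with a median of 0.101 CPM. The FRZB ranges of the 2 sets of cells did not overlap, while the RSPO3 ranges overlapped between 101.01 and 162.1 CPM.

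Other markers lay along the same line in these cells. The rho of RSPO3 with GATA4 was 0.79, with PDGFRA 0.61 and with SOX17 0.44. With the pluripotency genes NANOG and POU5F1 it was -0.59 and -0.60. For FRZB the values were 0.69 with GATA4, -0.60 with NANOG and -0.67 with POU5F1. Both members also ran against the number of trophectoderm markers at 10 CPM in a cell, with a rho of -0.46 for RSPO3 and -0.48 for FRZB, and the part of mixed or double cells in these relations was not tested. PDGFRA itself was at 10 CPM in all 32 cells, with and without RSPO3.

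**Figure D2:**
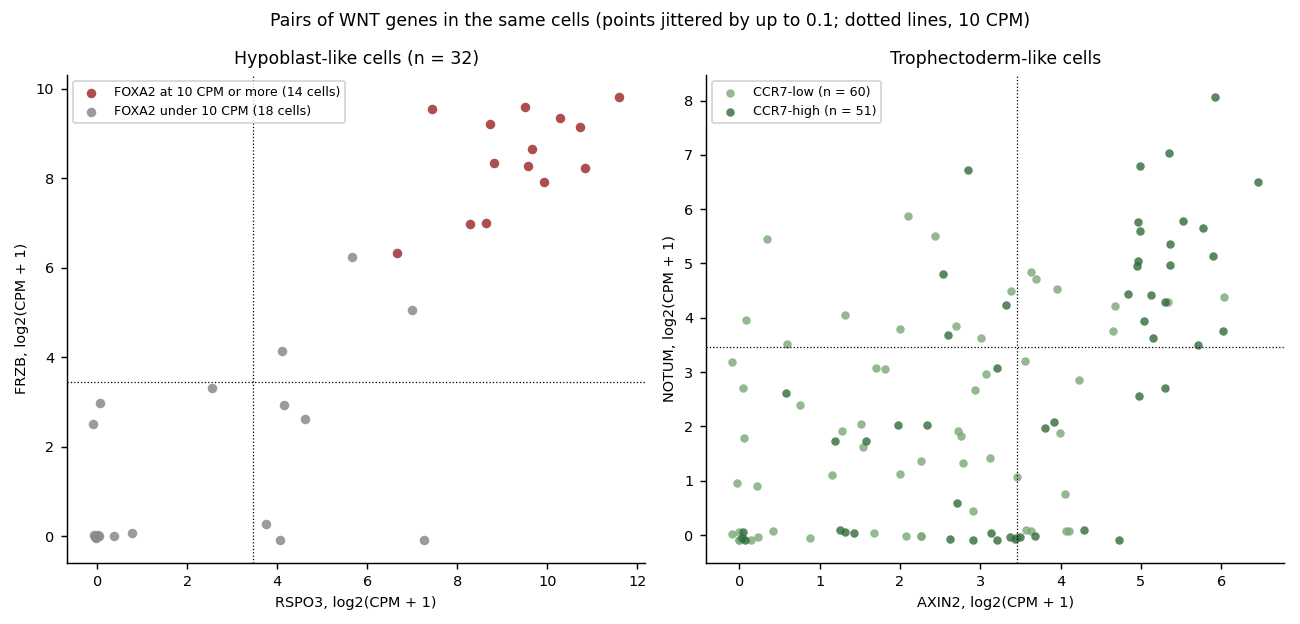
Left, RSPO3 against FRZB as log2(CPM + 1) in 32 hypoblast-like cells, with the 14 cells that had FOXA2 at 10 CPM or more in red, all of them at the upper right. Right, AXIN2 against NOTUM in 60 CCR7-low (light) and 51 CCR7-high (dark) trophectoderm-like cells; 20 CCR7-high cells lie above 10 CPM (dotted lines) in both genes. Points are cells, jittered by up to 0.1.

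The R-spondin receptor did not share this distribution. LGR4 (ENSPTRG00000028697) was read in all 32 hypoblast-like cells and all 60 CCR7-low cells, and missed in 1 epiblast-like and 1 CCR7-high cell. Single cells ranged from 0 to 763 CPM in epiblast-like cells (median 90.1 CPM), from 16.7 to 436 CPM in hypoblast-like cells (median 148.5 CPM) and from 0 to 495 CPM in trophectoderm-like cells (median 78.5 CPM). The pooled level was highest in hypoblast-like cells, at 166.4 CPM (164.1 to 168.6), followed by the CCR7-high cluster at 117.5 CPM, epiblast-like cells at 115.4 CPM and the CCR7-low cluster at 83.6 CPM. The values of the CCR7-high cluster and of epiblast-like cells had intervals that overlapped (116.2 to 118.9 and 113.97 to 116.8). The hypoblast-like level was 1.44-fold the epiblast-like level, and the ranges of single cells overlapped almost entirely. All 32 hypoblast-like cells had LGR4 at 10 CPM or more, so that each of the 22 cells with RSPO3 at that level held the receptor as well, and the rho between their levels was 0.51.

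The rest of the R-spondin module was in part as wide and in part barely read. RSPO1, RSPO2 and RSPO4 reached at most 0.158 CPM in any cluster, and LGR5 and LGR6 at most 0.748 CPM. The ligases RNF43 and ZNRF3 were read in every class, RNF43 from 6.22 CPM in hypoblast-like to 28.8 CPM in CCR7-low trophectoderm-like cells, and ZNRF3 from 11.4 CPM in CCR7-high to 17.9 CPM in epiblast-like cells.

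Among the receptors, LRP6 (ENSPTRG00000004701), the co-receptor of the beta-catenin branch, was as general as LGR4. It was read in each cell of both inner classes and in 58 of 60 and 50 of 51 trophectoderm-like cells. Its pooled level was 27.97 CPM (27.3 to 28.7) in epiblast-like, 18.1 CPM (17.4 to 18.9) in hypoblast-like and 19.2 CPM (18.8 to 19.6) in trophectoderm-like cells. The epiblast-like level was 1.54-fold (1.47 to 1.62) the hypoblast-like one, a step smaller than the spread between cells, which ran from 0.701 to 107.6 CPM in epiblast-like cells alone.

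FZD5 (ENSPTRG00000012855), a frizzled receptor, was unevenly distributed over the trophectoderm-like clusters. Among the trophectoderm-like cells it was read in 38 of 51 CCR7-high (exact interval 60.4% to 85.7%) but 15 of 60 CCR7-low cells (14.7% to 37.9%). The inner classes had it in 47 of 50 and 24 of 32 cells. The median cell had 6.82 CPM in the epiblast-like, 3.16 CPM in the hypoblast-like, 1.51 CPM in the CCR7-high and 0 CPM in the CCR7-low cluster, and the highest cells were at 44.8, 25.3, 52.5 and 6.75 CPM in that order. The 4 ranges overlapped at the low end. The pooled level was 8.61 CPM (8.22 to 9.01) in epiblast-like cells, 5.51 CPM (5.11 to 5.93) in hypoblast-like cells, 4.81 CPM (4.55 to 5.09) in CCR7-high and 0.523 CPM (0.440 to 0.618) in CCR7-low cells. The CCR7-high level was 9.20-fold (7.71 to 11.05) the CCR7-low level. A deep cell of 11002400 reads held 47.9% of the CCR7-high reads, and without it the cluster was at 2.62 CPM. At 1 depth of 2532312 reads per cell, with 20 shallower cells left out, a read remained in 32 of 46 CCR7-high and 13 of 54 CCR7-low cells.

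FZD7 (ENSPTRG00000049803), a frizzled with a role in human pluripotent stem cells, was near the limit of detection. In epiblast-like cells 5 of 50 held a read, in hypoblast-like cells 10 of 32 and in the trophectoderm-like clusters 10 of 60 and 11 of 51, and it reached 10 CPM in 0 cells. The pooled levels of 0.139, 0.233 and 0.186 CPM in epiblast-like, hypoblast-like and trophectoderm-like cells had intervals that overlapped. In epiblast-like cells 73.3% of its reads came from 1 cell, without which it was at 0.0378 CPM. Among all 10 frizzled genes, FZD3, FZD5 and FZD6 were those found in 50% or more of the cells called epiblast-like, and FZD6 was at 85.8 CPM there and at 21.5 to 28.9 CPM in the other clusters.

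Of the ligands, WNT3 was barely read. Its summed identifiers had 40 reads in epiblast-like cells, in 18 of 50 (22.9% to 50.8%), 5 reads in 3 of 32 hypoblast-like cells and 2 reads in 2 of 60 CCR7-low cells. The CCR7-high cluster had 0 reads, which by the limit of 3 counts allows up to 5.88% of its cells with a read. The highest cell was at 1.19 CPM, and the first identifier gave 21 and the second 19 of the epiblast-like reads. The pooled levels were 0.186 CPM (0.133 to 0.253), 0.0389 CPM (0.0126 to 0.0908) and 0.00387 CPM (0.000469 to 0.0140) in epiblast-like, hypoblast-like and trophectoderm-like cells. The epiblast-like level was 4.78-fold (1.89 to 15.5) the hypoblast-like and 48.004-fold (12.4 to 410) the trophectoderm-like one. Without the epiblast-like cell with most reads these folds were 4.06 and 40.8. The first was 7.65 without the hypoblast-like cell with most reads, and the second 95.2 without 1 trophectoderm-like cell. The pooled levels of WNT3 are a few reads per cell at most. The hypoblast-like comparison fell under 4-fold when cells were thinned to 1 depth, at 0.214 against 0.0790 CPM.

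Among the antagonists, DKK1 (ENSPTRG00000002511), which blocks LRP6, had most of its reads in epiblast-like cells. In this class 14 of 50 cells had a read (16.2% to 42.5%), and 4 reached 10 CPM, the highest at 67.5 CPM. In hypoblast-like cells 3 of 32 had a read, with a highest value of 5.38 CPM. Each of these 3 cells also had RSPO3 reads, as did 25 of all 32. In trophectoderm-like cells it had 0 reads among 516438618, in 0 of 60 and 0 of 51 cells, which by the limit of 3 counts allows up to 2.703% of them with a read. The pooled levels were 3.32 CPM (3.08 to 3.57) in epiblast-like and 0.420 CPM (0.316 to 0.548) in hypoblast-like cells. That was a 7.90-fold difference (5.99 to 10.6), and the epiblast-like level was 571-fold the limit of 3 reads over all trophectoderm-like cells. This limit treats reads as independent. Reads came in clumps, with a median of 7.31 CPM in epiblast-like cells with a read, so 1 positive trophectoderm-like cell could exceed the limit. The 14 positive cells were a minority, and 1 of them gave 35.2% of the reads, without which the class stood at 2.19 CPM. That was 5.21-fold the hypoblast-like level and 377-fold the limit of 3 reads in trophectoderm-like cells. Of the 54 hypoblast-like reads 46.3% came from 1 cell, and without it the class was at 0.235 CPM and the epiblast-like level 14.1-fold higher.

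SFRP1 (ENSPTRG00000020192), a frizzled-related antagonist like FRZB, was read in most cells of both inner classes. It was read in 36 of 50 and 19 of 32 cells of these classes, the epiblast-like given first, and in 13 of 60 and 18 of 51 trophectoderm-like cells. Epiblast-like cells ranged from 0 to 111.7 CPM with a median of 7.74 CPM, and 21 reached 10 CPM. Hypoblast-like cells ranged from 0 to 327 CPM with a median of 2.37 CPM, and 6 reached 10 CPM. Trophectoderm-like cells ranged from 0 to 31.9 CPM with a median of 0. The pooled levels were 11.7 CPM (11.3 to 12.2) in epiblast-like, 13.99 CPM (13.3 to 14.7) in hypoblast-like and 1.61 CPM (1.503 to 1.72) in trophectoderm-like cells. Both inner classes were above the trophectoderm-like level, 7.28-fold (6.73 to 7.89) for the epiblast-like and 8.68-fold (7.99 to 9.44) for the hypoblast-like cells. A single hypoblast-like cell at 327 CPM held 52.4% of the reads. Without it the hypoblast-like level was 6.81 CPM, below the epiblast-like one and 4.23-fold the trophectoderm-like one. Without the cells that had markers of a second class, which left 2 hypoblast-like cells, that difference was under 4-fold, at a log2 fold of -0.89 for trophectoderm-like against hypoblast-like cells. In hypoblast-like cells SFRP1 had a rho of 0.06 with RSPO3, against 0.86 for FRZB.

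AXIN2 (ENSPTRG00000009554), a scaffold of the beta-catenin destruction complex and a target of the pathway, was read in nearly every cell. It was missed in 1 epiblast-like and 1 hypoblast-like cell, and read in 51 of 60 CCR7-low and 48 of 51 CCR7-high cells. Single cells ranged from 0 to 52.1 CPM in epiblast-like (median 10.49 CPM), from 0 to 49.4 CPM in hypoblast-like (median 7.93 CPM), from 0 to 67.7 CPM in CCR7-low (median 3.55 CPM) and from 0 to 87.8 CPM in CCR7-high cells (median 13.1 CPM). All 4 ranges overlapped. The pooled order was CCR7-high at 24.2 CPM (23.6 to 24.8), epiblast-like at 13.1 CPM (12.7 to 13.6), hypoblast-like at 9.95 CPM (9.41 to 10.51) and CCR7-low at 5.999 CPM (5.71 to 6.30). The trophectoderm-like clusters differed 4.03-fold (3.81 to 4.26), or 2.97-fold by the mean CPM over cells (21.9 and 7.36 CPM), and lay on either side of the inner classes, while both clusters together had 14.8 CPM. At 1 depth of 2532312 reads per cell the levels were 22.9 CPM in 46 CCR7-high and 5.52 CPM in 54 CCR7-low cells.

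The AXIN2 level of CCR7-high cells went with that of NOTUM, which encodes an enzyme that removes the lipid from WNT ligands and is induced by the pathway in several tissues. NOTUM (ENSPTRG00000009781) was at 30.6 CPM in CCR7-high and 7.28 CPM in CCR7-low cells, a 4.20-fold difference (3.99 to 4.42). A single CCR7-high cell gave 23.8% of these reads, and without it the level was 23.9 CPM and the difference 3.29-fold. NOTUM was at 4.62 and 5.38 CPM in the epiblast-like and hypoblast-like class. In the 51 CCR7-high cells both genes reached 10 CPM in 20, AXIN2 alone in 8, NOTUM alone in 4 and neither in 19, with a rho of 0.67. In the 60 CCR7-low cells both reached it in 7, AXIN2 alone in 10, NOTUM alone in 10 and neither in 33, with a rho of 0.25. AXIN2 had a rho of 0.23 with the reads of the cell in the CCR7-high and of -0.07 in the CCR7-low cluster. With the members upstream of it in CCR7-high cells the rho of AXIN2 was -0.04 with LGR4, 0.07 with FZD5 and -0.04 with LRP6.

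For a count over the 10 genes, a difference of at least 4-fold was required. Against epiblast-like cells, hypoblast-like cells had 2 members at least 4-fold higher (RSPO3 and FRZB), where 2.97% of all genes tested were, and 2 at least 4-fold lower (WNT3 and DKK1), where 9.01% were. Trophectoderm-like cells had 0 members higher than epiblast-like cells, where 5.7% of genes were, and 5 lower (WNT3, RSPO3, DKK1, FRZB and SFRP1), where 11.5% were. Against hypoblast-like cells the same 5 were lower in trophectoderm-like cells, where 6.44% of genes were, and 0 were higher, where 7.57% were. Both of these comparisons share the trophectoderm-like cells. FRZB between trophectoderm-like and epiblast-like cells is counted although its direction turned without the 1 epiblast-like cell described above, and WNT3 in hypoblast-like cells rests on 5 reads. Without that cell, taken out for all genes, 4 members were lower in trophectoderm-like than in epiblast-like cells. Single cells also kept members out of the count. Without the deep CCR7-high cell FZD5 was at 1.52 CPM in trophectoderm-like cells, where the epiblast-like level was 5.67-fold higher, and without the epiblast-like cell with most of its reads FZD7 was 6.18-fold higher in hypoblast-like and 4.92-fold higher in trophectoderm-like than in epiblast-like cells. Between the trophectoderm-like clusters 3 members were higher in CCR7-high cells (FZD5, FRZB and AXIN2), where 4.78% of genes were, and 0 in CCR7-low cells, where 3.51% were. FRZB counts there with 8 and 12 positive cells and 52.9% of the CCR7-high reads from 1 cell, without which it was at 0.682 CPM against 0.222 CPM and under 4-fold. AXIN2 is at the threshold, with an interval that spans it, and was under 4-fold by the mean over cells and, at 3.74-fold, without the CCR7-high cell with most of its reads. FZD5 stayed past 4-fold in both, at 5.46-fold and 5.02-fold. The median log2 fold of the members was -2.29 for trophectoderm-like against epiblast-like, -2.10 against hypoblast-like and -0.07 for hypoblast-like against epiblast-like cells, with DKK1 set at its bound. The first of these was -1.12 without the epiblast-like cell with most FRZB reads, and the second -1.60 and the last -0.55 without the hypoblast-like cell with most SFRP1 reads. Over all genes these medians were -0.12, 0.05 and -0.20. All genes here are those with a read in at least 20 kept cells, a filter that 8 of the 10 members passed, WNT3 and DKK1 not.

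**Figure D3:**
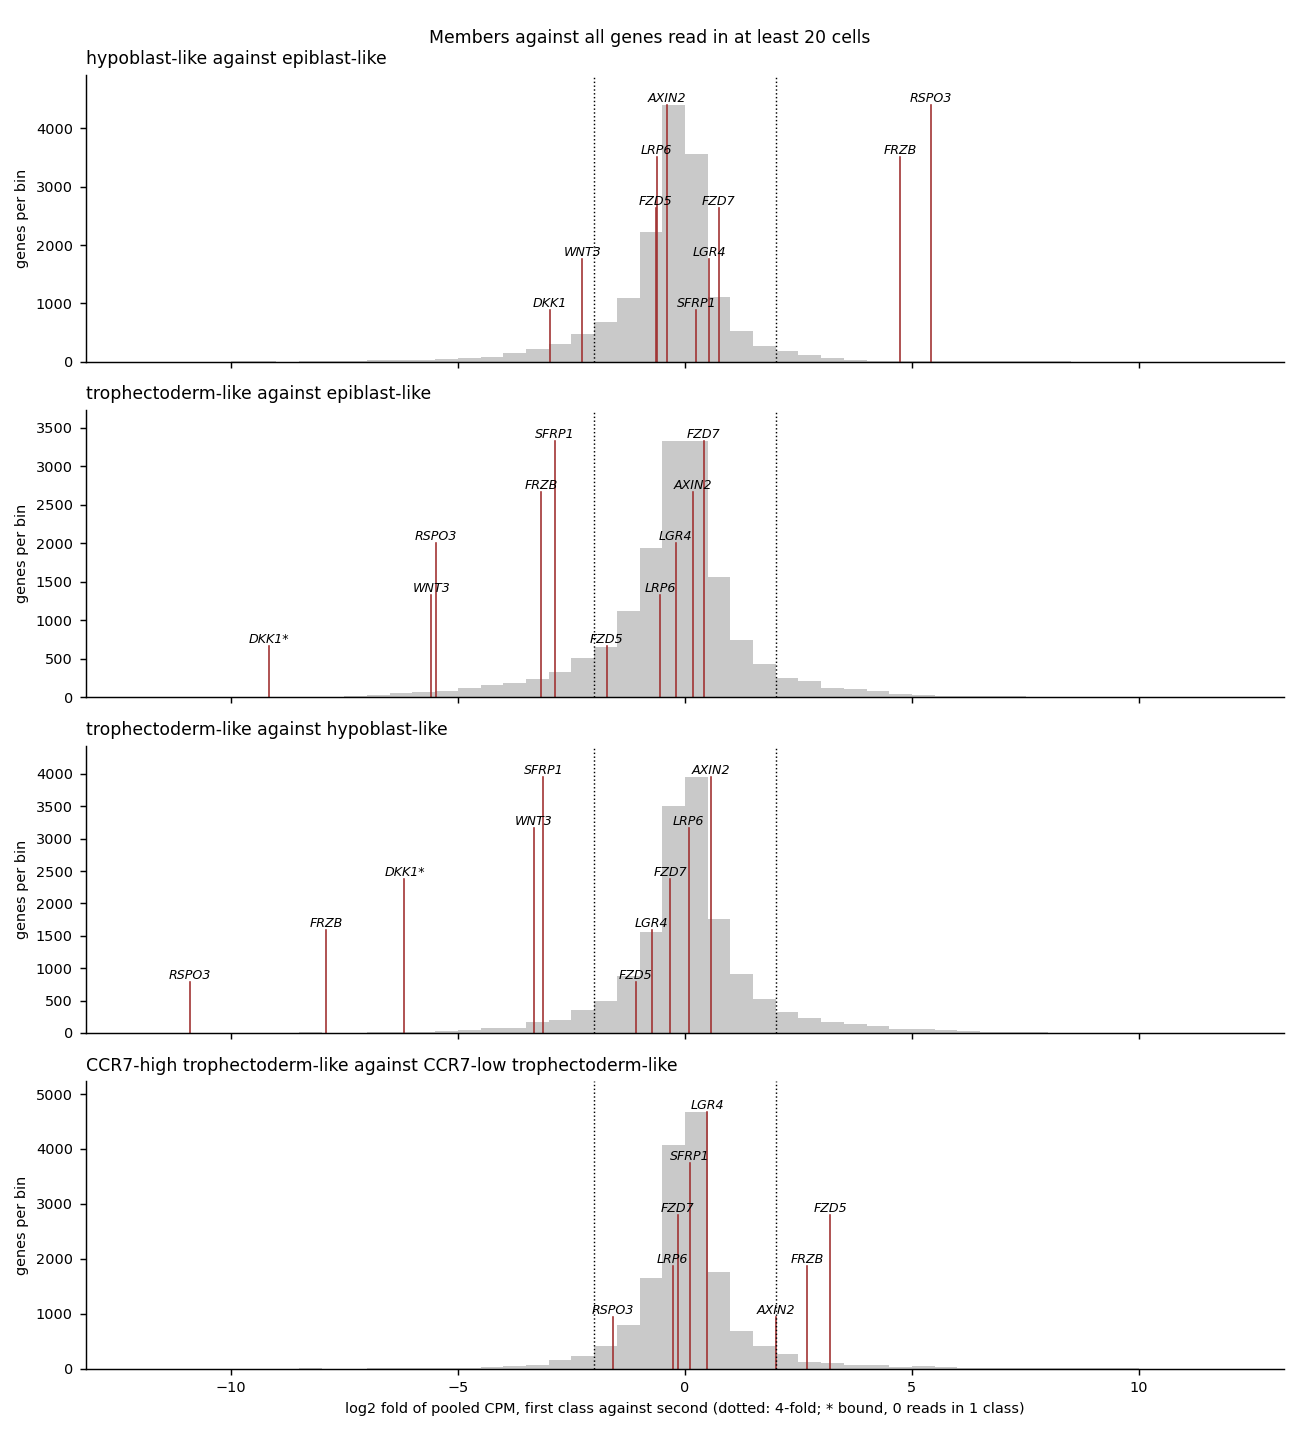
Log2 fold of pooled CPM of the members (red lines with names) in 4 comparisons, over a histogram of all genes with a read in at least 20 kept cells (grey, genes per bin of 0.5). Dotted lines mark 4-fold, and an asterisk a bound from 0 reads. In both comparisons with trophectoderm-like cells the 5 members past 4-fold lie to the left, FRZB against epiblast-like cells through 1 cell, and LGR4, LRP6, AXIN2, FZD5 and FZD7 lie between the lines.

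The WNT lists of 91 genes showed where the other parts of the pathway were read. The counts that follow include genes read in few cells, and stand beside the shares of all genes given above for trophectoderm-like against epiblast-like cells, 5.7% higher and 11.5% lower. Of 19 ligand genes, 7 were at least 4-fold higher and 5 at least 4-fold lower in trophectoderm-like than in epiblast-like cells, and 12 of the 19 passed the filter of 20 cells behind those shares. WNT11 stood at 82.2 CPM in CCR7-low and 20.5 CPM in CCR7-high cells, against 4.63 CPM in epiblast-like and 13.5 CPM in hypoblast-like cells. WNT7B was at 8.15 and 16.6 CPM in the CCR7-low and CCR7-high clusters and below 1 CPM in the inner classes, and WNT7A at 14.6 and 10.9 CPM against 1.93 and 0.786 CPM. The inner classes had WNT5B, a ligand mostly known outside the beta-catenin branch, at 22.3 and 22.7 CPM, against 1.22 CPM in trophectoderm-like cells. WNT16 was at 16.7 CPM in hypoblast-like and 6.36 CPM in epiblast-like cells, where 1 cell gave 47.2% of its reads, and at 2.73 CPM in trophectoderm-like cells. WLS, the carrier that takes WNT ligands to the cell surface, was higher in the trophectoderm-like clusters, at 339 CPM in CCR7-low and 163.3 CPM in CCR7-high cells against 28.95 and 41.8 CPM in the epiblast-like and hypoblast-like class.

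Of 17 antagonist genes, 11 were at least 4-fold lower and 2 higher in trophectoderm-like than in epiblast-like cells, with a median log2 fold of -3.17 over the 15 that had a fold, but 7 of the 17 passed the filter of 20 cells, so most of the list was read in few cells. FRZB is among the 11 and its fold is the median. Without the epiblast-like cell with most FRZB reads 10 were lower and 1, SFRP4, higher, with a median of -3.10. SFRP2, a frizzled-related antagonist, was at 17.8 CPM in epiblast-like cells, where 22 of 50 had a read, and at 0.116 CPM in trophectoderm-like cells. In hypoblast-like cells it had 0 reads, and the epiblast-like level was 762-fold the limit of 3 reads, which treats reads as independent. The antagonists thus divided, with SFRP2 and DKK1 on the epiblast-like side, FRZB on the hypoblast-like side and SFRP1 read in most cells of both. The 2 higher in trophectoderm-like cells were NOTUM and SFRP4, the latter with 37 reads in 3 cells. NOTUM counts there at 4.03-fold, and without the CCR7-high cell named above it was at 15.2 against 4.62 CPM, or 3.30-fold.

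Inside the cell, 12 of the 13 genes of the destruction complex list lay within 4-fold between trophectoderm-like and epiblast-like cells. CTNNB1, the gene of beta-catenin, was the exception. Its levels were 194.9, 321, 394 and 1485 CPM in the order epiblast-like, hypoblast-like, CCR7-low and CCR7-high. TCF7L2, a partner of beta-catenin, had the same order, at 16.5, 28.4, 91.9 and 193.97 CPM. TCF7, of the same family, had the opposite one, at 24.4, 19.2, 4.71 and 4.51 CPM.

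The target list was divided. Of its 14 genes, 3, NOTUM with the same limit among them, were at least 4-fold higher and 4 lower in trophectoderm-like than in epiblast-like cells, and 11 passed the filter. SP5, a transcription factor that responds to the pathway, was at 12.9 CPM in hypoblast-like and 4.88 CPM in epiblast-like cells but at 0.211 CPM in trophectoderm-like cells. TNFRSF19 was at 16.6 CPM in hypoblast-like cells, where 37.6% of the reads came from 1 cell, at 13.5 CPM in CCR7-low and at 2.64 CPM in CCR7-high cells, against 0.437 CPM in epiblast-like cells. CCND1, a cyclin, was at 33.9, 7.54, 11.7 and 29.9 CPM in the order given for CTNNB1, and MYC, a growth regulator, at 26.98, 20.95, 115.2 and 76.8 CPM. Between the trophectoderm-like clusters 5 genes of this list were at least 4-fold higher in CCR7-high cells, where 4.78% of all genes were, and 1, TNFRSF19, was lower, where 3.51% were. Of the 5, AXIN2 and NOTUM, both near the threshold as given above, were above 10 CPM, and NKD1, LGR5 and TBXT were at 1.53, 0.124 and 0.0518 CPM.

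**Figure D4:**
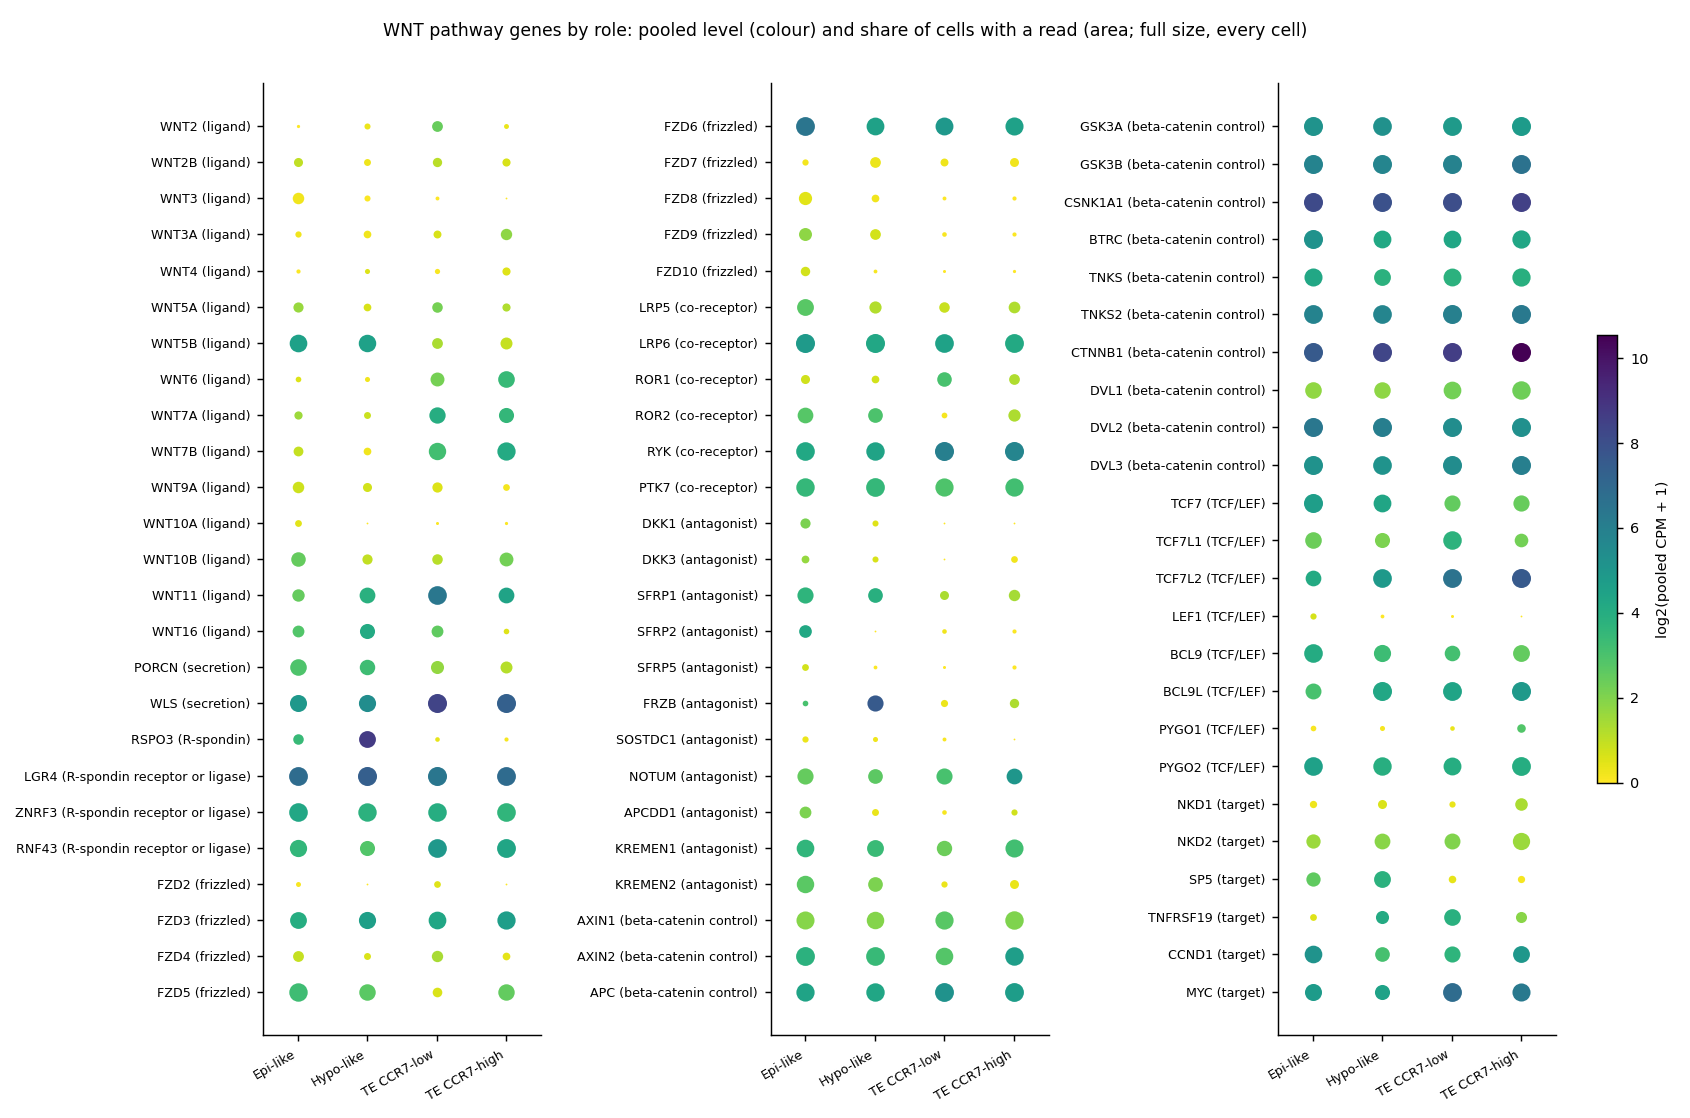
WNT pathway genes read in 10% or more of the cells of any cluster, named with their role, in 4 clusters. Colour is log2(pooled CPM + 1) and the area of a dot the share of cells with a read. WNT11, WNT7B and WLS are darker in the trophectoderm-like columns, RSPO3 and FRZB in the hypoblast-like column, and SFRP2 in the epiblast-like column.

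The genes whose levels ran most like a member's over all kept cells were looked up for the 4 members detected in 50% or more of them, among 10624 genes. For FZD5 they were TNFRSF1A (rho 0.66), ORAI1 (0.59) and MAN1C1 (0.59). For LGR4 they were CEMIP2 (0.47), FGFR1 (0.46) and TXNDC11 (0.45), for LRP6 PCSK5 (0.48), BIRC6 (0.40) and CEMIP2 (0.39), and for AXIN2 HDAC5 (0.42), MAP3K4 (0.42) and MAP3K8 (0.41). These cells share 1 sample and differ in class and in depth, and neither was removed. The values for LGR4, LRP6 and AXIN2 are weak.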

How the data were processed

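The authors deposited read counts per gene, unnormalized, for 217 cells and 33729 Ensembl gene identifiers. Per the study's methods, reads were trimmed with FastP and aligned and counted with STAR on the chimpanzee genome. The submitters' notes list Trim Galore 0.6.6, STAR 2.7.7a and GRCh38, but the identifiers are those of the chimpanzee annotation. Whether the counting used strand is not given in the sources used here. Without gene lengths, levels were compared between cells only, not between genes.

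Symbols were matched for 18783 identifiers. Cells with at least 4000 reads and 8000 detected genes were kept (193). Genes with a read in at least 20 kept cells (15804), without 95 identifiers of the WNT lists, were scaled to equal totals and log1p-transformed with Scanpy 1.11.5, reduced to 50 principal components, and clustered with leidenalg 0.10.2 (30 neighbours, resolution 1). Clusters were named from marker lists. No doublet caller was run.

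CPM were computed from reads summed over the cells of a class, with exact Poisson 95% intervals, folds with exact conditional intervals and shares of cells with exact Clopper-Pearson intervals. Intervals and limits treat reads, or cells for a share, as independent. Copies of a molecule are counted repeatedly and cells of a class differ, so the intervals of levels and folds are too narrow. A count of 0 was given the limit of 3 reads, or of 3 cells for a share, in place of an interval, and no fold where that limit left the direction open. All cells form 1 sample, so there were no replicates, tests or p-values, and differences are called by size, as at least 4-fold. Pathway genes outside the 10 are described if they were at least 4-fold apart between 2 classes and at 10 CPM or more in the higher. Others are named to complete a list. The members and lists were chosen with earlier results of these data known. NOTUM, FOXA2, the other markers and the cells holding most reads of a gene were set beside members after their values were seen. The scripts were tested on simulated data.

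Alternatives covered the cell filter, clustering, cells with markers of a second class, thinning to 2532312 reads, the summary over cells, scaling, and the thresholds.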

Additional observations from a re-analysis of the deposited data

Results flagged for a closer look

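The 24 cells left out for few detected genes enter no comparison, and 8 of the 10 members had more than 3 reads in them. Pooled over these cells, LGR4 was at 73.5 CPM, LRP6 at 23.6 CPM and AXIN2 at 10.96 CPM. RSPO3 was at 14.9 CPM with a read in 3 cells and FRZB at 4.31 CPM with a read in 3. FZD5 was at 7.24 CPM, SFRP1 at 3.31 CPM and DKK1 at 0.251 CPM, the last from 1 cell. Each is above the 0.0685 CPM that 3 reads over these cells would give.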

How the results depend on the processing

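No replicate could be left out and no paired analysis was possible because all cells form 1 sample. Clustering on all genes, without the markers, at a resolution of 0.5 or 1.5 or from UMAP coordinates put every kept cell in the same class. Of the 14 differences of at least 4-fold between the 3 classes, 11 kept their direction and stayed past 4-fold in each setting that gave a value, though their size moved. Some of these settings could not move a fold. They are the clusterings that left every class unchanged, another fold threshold, and another rule for calling a gene detected in a cell. The log2 fold of RSPO3 between trophectoderm-like and epiblast-like cells, for example, ranged from -6.03 to -2.42. The FRZB difference between trophectoderm-like and epiblast-like cells turned from a log2 fold of -3.17 to 1.31 with 15 neighbours, to 0.94 without the cells that had markers of a second class and to 0.44 without the highest cell of each gene. SFRP1 between trophectoderm-like and hypoblast-like cells shrank from -3.12 to -0.89 without the cells with markers of a second class. That setting removed 74 cells and left 24 epiblast-like and 2 hypoblast-like cells, the latter without a WNT3 read and so without a value for its fold, and 2 members at least 4-fold apart between trophectoderm-like and hypoblast-like cells. WNT3 between hypoblast-like and epiblast-like cells shrank from -2.26 to -1.44 at 1 depth. Medians over cells left 2 members at least 4-fold apart between hypoblast-like and epiblast-like and 2 between trophectoderm-like and epiblast-like cells. The share of all genes was computed from pooled reads only, so these counts have no share beside them. With 10 CPM in place of 1 read, 3 members in place of 5 were found in at least 50% of the epiblast-like and 4 in place of 7 in at least 50% of the hypoblast-like cells. Without a minimum of genes the hypoblast-like class held 54 cells. Scaling by median of ratios moved the median log2 fold of all genes between hypoblast-like and epiblast-like cells from -0.20 to -0.02. In 2 alternatives chosen after seeing the data for the trophectoderm-like clusters, AXIN2 and NOTUM came under 4-fold in both, FRZB without 1 cell, and FZD5 in neither. The folds, counts and medians without 1 cell were also added then. FRZB between trophectoderm-like and epiblast-like cells was at 1.31 without its highest epiblast-like cell. FZD7, at 0.139 to 0.233 CPM, and WNT3 in hypoblast-like cells, with 5 reads, were near the limit of detection.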
